A study of Mus musculus with 8 samples.

Results

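Transcripts of 39 interferon response genes were examined in 2 populations of cells sorted from mouse liver. The genes were taken by name as a list of well-known interferon-induced genes and of factors that act in the same response, and all 39 were found among the 46603 gene rows of the count table. Of these, 35 had enough reads to be tested, and Oas2, Oas3, Mx1 and Mx2 had too few. The cells came from 4 mice, named JV602, JV621, JV624 and JV6314, and each mouse gave 1 library of label-retaining cells (LLRC) and 1 library of non-label-retaining cells (non-LRC).

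All 4 mice were heterozygous for R26rtTA, a doxycycline-dependent activator placed in the Rosa26 locus that is active in most tissues, and heterozygous for H2B-EGFP, a green histone that the activator switches on. Every mouse was given doxycycline from birth to postnatal day 5, and both populations were sorted at 8 weeks of age, so that green cells are those that diluted the histone little in the meantime. Per the methods, cells positive for EpCAM and negative for CD45 were sorted as EGFP-positive (LLRC) or EGFP-negative (non-LRC), leukocytes were first depleted, and mice of both sexes on a mixed C57BL/6 and CBA background were used. The study also states that blood-forming cells of these mice make the green histone without doxycycline. The labels name no infection and no interferon treatment.

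Interferons are secreted when cells sense foreign or misplaced nucleic acid. Type I and type III interferons act through the kinases JAK1 and TYK2 on a complex that contains STAT2 and IRF9 and binds a DNA element called the ISRE, whereas type II interferon acts through JAK1 and JAK2 on factors that bind the GAS element. The induced genes sense viral RNA, degrade it, block its translation, tag proteins with ISG15 or attack the membranes around pathogens, and many have a basal level in unstimulated epithelium.

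The DNA in front of several of these genes holds letters that match the core of the ISRE. The 8 stretches below were chosen because each holds at least 2 such matches upstream of the start site. They are from RefSeq on GRCm38.p6, written 5′ to 3′ on the strand of the gene, with the matches to GAAANNGAA in capitals. Where a match lies on the other strand it reads TTCNNTTTC, and neighbouring matches can overlap, so that a run of capitals may hold more than 1. Isg15 is at chr4:156200864-156200908 on the minus strand, Ifit1 at chr19:34640768-34640825 and Ifit3 at chr19:34583362-34583447 on the plus strand, and Gbp3 at chr3:142559988-142560026 on the plus strand. Oas1a is at chr5:120907526-120907557, Oas3 at chr5:120777708-120777746, Irgm1 at chr11:48871424-48871462 and Bst2 at chr8:71537576-71537614, all on the minus strand.
Isg15: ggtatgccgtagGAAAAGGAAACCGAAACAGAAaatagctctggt
Ifit1: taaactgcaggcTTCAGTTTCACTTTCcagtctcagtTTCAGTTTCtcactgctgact
Ifit3: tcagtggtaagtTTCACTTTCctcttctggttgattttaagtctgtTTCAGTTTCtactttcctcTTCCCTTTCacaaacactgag
Oas1a: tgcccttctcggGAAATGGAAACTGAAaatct
Oas3: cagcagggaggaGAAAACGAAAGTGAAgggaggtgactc
Irgm1: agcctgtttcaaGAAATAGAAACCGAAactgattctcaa
Bst2: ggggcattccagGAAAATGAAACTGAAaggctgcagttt
Gbp3: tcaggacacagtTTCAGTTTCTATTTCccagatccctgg

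The matches were counted in promoter windows from 250 bases before to 50 bases after the start site. Promoters were found for 28 of the 39 genes, 4 of them with 2 promoters, which gave 32 windows, and 11 genes had no entry (Dhx58, Zbp1, Oas2, Usp18, Parp9, Parp14, Iigp1, Mx1, Mx2, Rtp4 and Ifi27). GAAANNGAA, searched on both strands, was present in 19 of the 32 windows (59.4%), against 8.56% of 32851 promoters in the table. At least 2 matches were present in 10 windows (31.2%), against 0.624% of all promoters. In Isg15 3 matches followed each other at 6 bases, and 8 genes (Isg15, Ifit1, Oas1a, Oas3, Irgm1, Bst2, Gbp3 and Eif2ak2) had a pair of matches at this spacing. The letters TTCNNNGAA of the GAS element were present in 8 windows (25%), against 8.3% of all promoters. A match describes the letters in the window and is not a measured binding site. The 18 tested genes with an ISRE match had a median log2 fold change of -0.12 between the populations, and the 9 tested genes with a promoter and no match had a median of -0.04.

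The libraries held between 7860021 and 9851819 counts in LLRC and between 4670132 and 8056103 counts in non-LRC, and levels are given as counts per 1000000 counts (CPM), with library sizes scaled by TMM. Both populations carried the biliary and sort markers: Epcam stood at 583 ± 48.6 CPM in LLRC and 551 ± 148 CPM in non-LRC, and Krt19 at 116 ± 28 and 134 ± 33.1 CPM (SD, n = 4 each). Of 10 cholangiocyte markers, 8 had a log2 fold change above 0 (median 0.30, range -0.49 to 1.43), where 48.9% of all tested genes did. At an unadjusted p under 0.05, 1 was higher in LLRC, where 1.60% of all tested genes were. This was the chloride channel gene Cftr, at 149 against 55 CPM (log2 fold change 1.43, unadjusted p = 0.0141 and adjusted p = 0.688 in edgeR's quasi-likelihood test). The non-LRC library of JV621 stood apart. It detected 14234 genes, against 16042 to 20430 in the others, and 176 genes were at 0 counts there with at least 10 CPM in each of the other 7 libraries. There were 21 such genes in the non-LRC library of JV6314, 2 in that of JV624 and 0 in the rest, so a 0 in these libraries can be a lost transcript, and estimates of response genes at 0 there are also given without the library. The non-LRC library of JV6314 held 880.4 CPM of pancreatic acinar markers, against 1.89 to 21.8 CPM in the other 7, and without it the median log2 fold change of the 35 genes was -0.10, with 0 genes past the adjusted test.

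The first comparison asked whether the 2 populations differ in their interferon response genes. None of the 35 tested genes differed between LLRC and non-LRC in edgeR's quasi-likelihood test with Benjamini-Hochberg adjustment at 0.05, and the adjusted p of the genes lay between 0.764 and 0.9999. The same test called 0 of 13605 genes (0%). DESeq2's Wald test also called 0 of the 35 genes, where it called 1.65% of all genes. At an unadjusted p under 0.05, 0 of the 35 genes were higher in LLRC, where 1.60% of all tested genes were, and 1 was lower (Iigp1), where 3.56% were. Fold changes were above 0 for 16 genes and below 0 for 19 (45.7% above 0, against 48.9% of all tested genes), and ran from -1.19 to 0.85 on the log2 scale with a median of -0.07, beside -0.01 for all tested genes. In bulk samples, fewer cells with a transcript and less of it per cell cannot be told apart. The 2 libraries of a mouse share the animal, but the fit has no term for the mouse. Its p-values therefore rest on the spread between libraries within each group, and the exact permutation p-values given below also leave out the pairing.

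**Figure D1:**
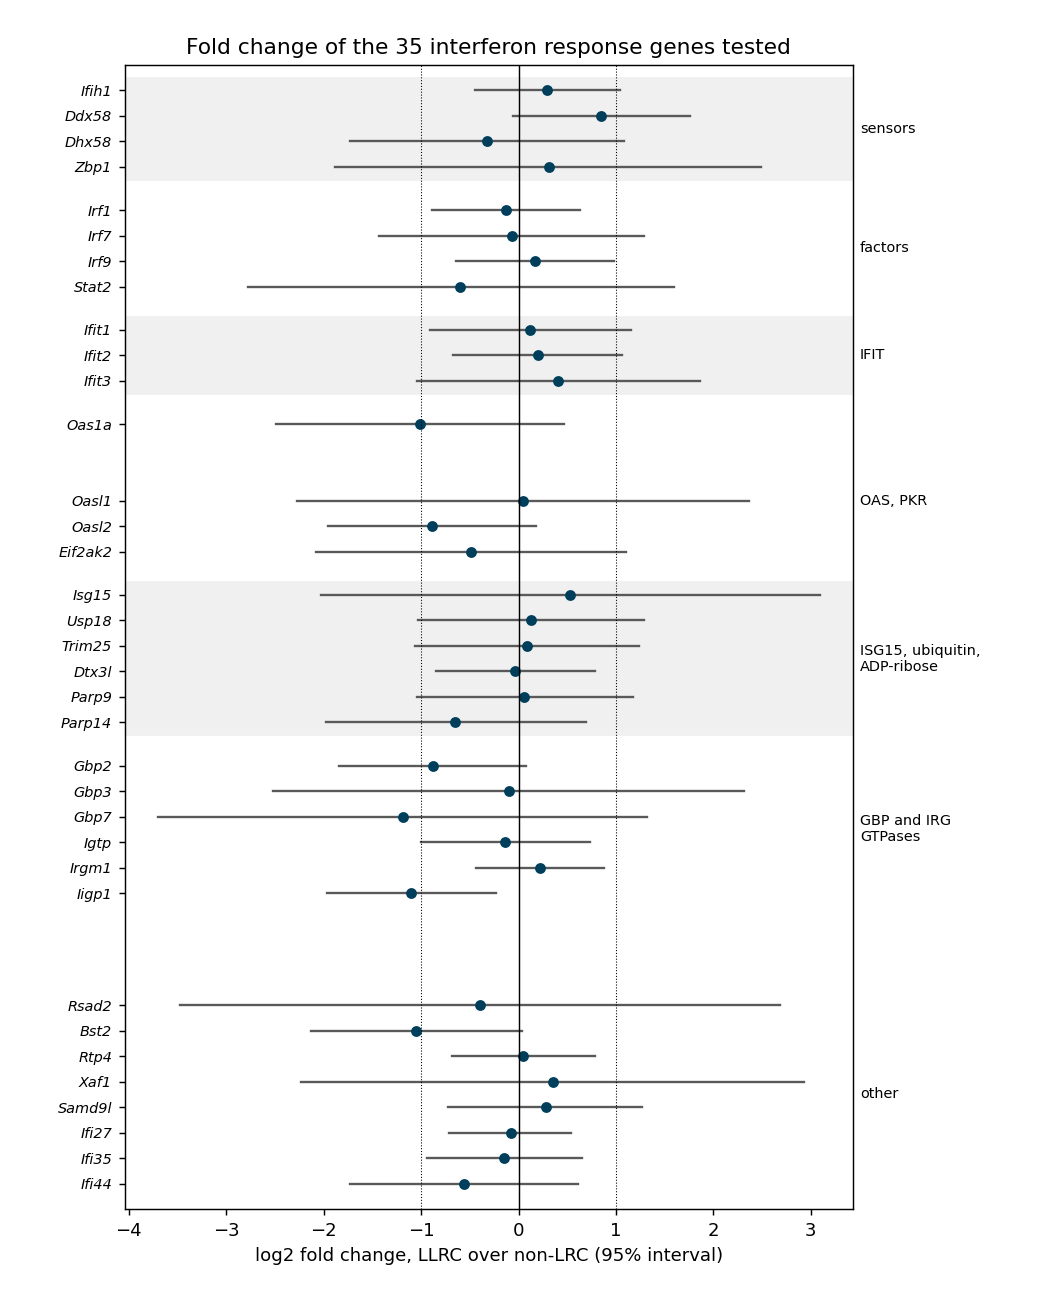
Log2 fold change (LLRC over non-LRC) of the 35 tested genes, grouped by role; points are estimates, horizontal lines 95% intervals, and dotted lines mark -1 and 1. The interval of Iigp1 lies wholly below 0, the intervals of the other 34 genes cover 0, and 8 lie within -1 and 1.

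The intervals set how much a difference could have been missed. The 95% interval of 8 genes lay between -1 and 1 on the log2 scale, and that of the other 27 reached a doubling or halving in at least one direction. The median standard error was 0.49 for these genes and 0.56 for all tested genes. No gene had all LLRC libraries above all non-LRC libraries or all below, where 2.15% and 1.91% of all tested genes did.

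The summed level of the 39 genes was 1520.3 ± 268 CPM in LLRC and 1642 ± 290.2 CPM in non-LRC (SD, n = 4 each). From mouse JV602 through JV621 and JV624 to JV6314, it was 1235, 1496, 1469 and 1882 CPM in LLRC and 1353, 1983, 1455 and 1776 CPM in non-LRC. The populations overlapped, and JV602 was the lowest mouse in both. Of the 35 tested genes, 24 had a mean level above the median of all tested genes (15.3 CPM), and 29 had counts in all 8 libraries. The response genes were thus read in both populations, and Samd9l, Ifi27 and Rtp4 together held between 27.2% and 45% of the sum in a library.

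**Figure D2:**
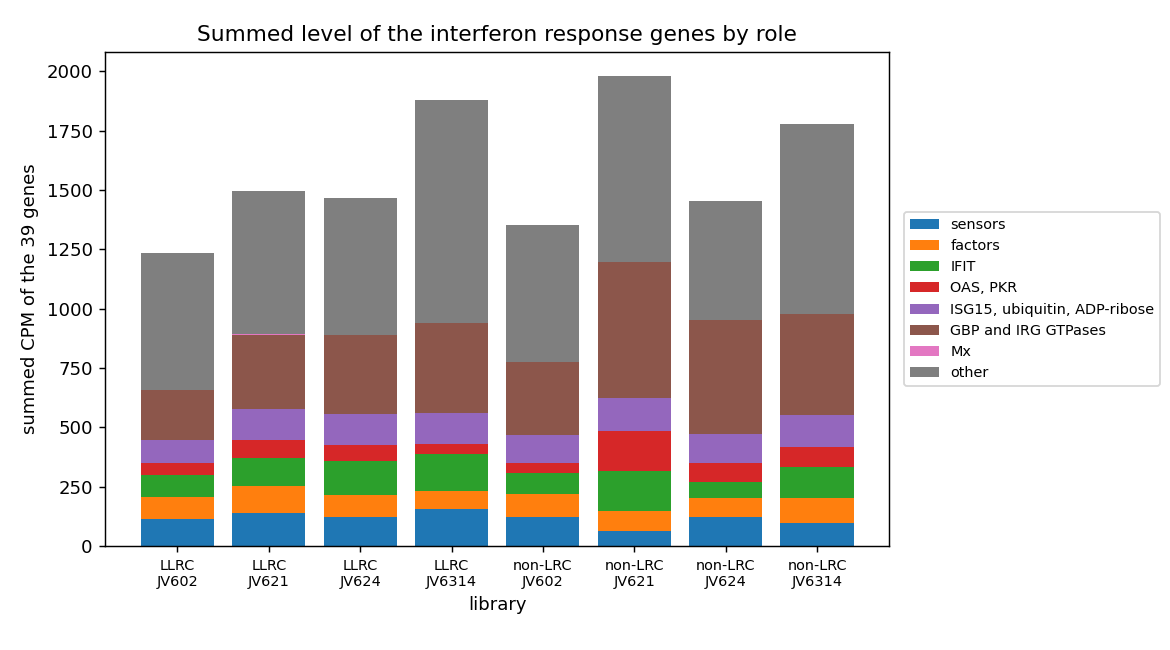
Summed CPM of the 39 genes in each of the 8 libraries (x axis), stacked by role of the genes. The 4 LLRC libraries stand between 1235 and 1882 CPM and the 4 non-LRC libraries between 1353 and 1983 CPM, so the populations overlap.

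Below, values by library are given in the order JV602, JV621, JV624 and JV6314. The RNA and DNA sensors were Ifih1 (MDA5), Ddx58 (RIG-I), their regulator Dhx58 (LGP2) and Zbp1, which binds left-handed nucleic acid. Ddx58 (chr4:40203773-40239828) had 450, 325, 337 and 455 counts in LLRC and 314, 58, 113 and 160 counts in non-LRC, with means of 45.5 ± 5.63 and 25.2 ± 12.5 CPM. The LLRC level was the higher one in 4 of 4 mice and the groups overlapped through JV602, whose non-LRC library (39.3 CPM) stood above the LLRC library of JV621 (38.4 CPM). The log2 fold change of Ddx58 was 0.85 (SE 0.40, 95% interval -0.06 to 1.76), and edgeR's quasi-likelihood test gave an unadjusted p of 0.0643 and an adjusted p of 0.9999, beside an exact two-sided permutation p of 0.057. Ddx58 was 1 of 35 genes higher in LLRC in all 4 mice (2.86%), where 7.74% of all tested genes were. The estimate was 1.15 without the non-LRC library of JV602 and 0.63 without that of JV621.

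Ifih1 (chr2:62595798-62646255) had 600, 741, 454 and 877 counts in LLRC and 596, 177, 529 and 295 counts in non-LRC. The levels were 77.5 ± 18.1 and 63.3 ± 20.5 CPM, higher in LLRC in 2 of 4 mice, with a log2 fold change of 0.29 (SE 0.33). Dhx58 and Zbp1 were low, at means of 2.70 to 9.12 CPM, with log2 fold changes of -0.32 and 0.31 and intervals that reached past -1 and 1. Zbp1 was at 0 in the non-LRC library of JV6314, and its estimate without that library was -0.10. The sensors thus had a median log2 fold change of 0.30, with 3 of 4 above 0 and 0 of 4 past the test.

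The transcription factors of the list were Stat2 and Irf9, which are part of the ISRE-binding complex, Irf7, which amplifies interferon production, and Irf1, which acts downstream of type II interferon. Irf9 was read at 53.5 ± 12.3 CPM in LLRC and 47.6 ± 17.1 CPM in non-LRC, and Irf1 at 27.9 ± 2.11 and 30.5 ± 10.4 CPM. Both differed by less than the SD between the non-LRC libraries, with log2 fold changes of 0.17 (SE 0.36) and -0.13 (SE 0.34). Irf7 (6.13 ± 3.84 and 6.43 ± 2.37 CPM) and Stat2 (4.97 ± 3.47 and 7.53 ± 6.40 CPM) were lower and varied more. Stat2 had 84, 63, 5 and 32 counts in LLRC and 45, 2, 100 and 42 in non-LRC, a spread of 11.1-fold and 37.8-fold in CPM within the groups. None of the 4 passed the test, and their median log2 fold change was -0.10.

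The IFIT genes encode proteins that bind foreign RNA and block its translation, and they lie together on chromosome 19 (Ifit2 at 34550694 to 34576419, Ifit3 at 34583531 to 34588731 and Ifit1 at 34640871 to 34650009). Ifit1 was read at 75.9 ± 27.1 CPM in LLRC and 69.9 ± 42 CPM in non-LRC, Ifit2 at 40.0 ± 9.66 and 34.9 ± 15.3 CPM, and Ifit3 at 12.4 ± 5.05 and 9.33 ± 7.40 CPM. The log2 fold changes were 0.12, 0.20 and 0.41, and none passed the test. Of the 50-base stretches of Ifit3, 51.2% also occur in Ifit3b, so reads of the pair may be split or dropped in the counting and the level of Ifit3 is uncertain.

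OAS proteins make a second messenger that activates an RNA-degrading enzyme, and PKR, the product of Eif2ak2, halts translation when it meets double-stranded RNA. Oasl2 (chr5:114896936-114912234), an OAS-like gene, had 229, 287, 126 and 116 counts in LLRC and 122, 205, 315 and 276 counts in non-LRC, with means of 21.9 ± 8.90 and 40.6 ± 17.5 CPM. Its log2 fold change was -0.89 (SE 0.47, unadjusted p = 0.0918 in edgeR's quasi-likelihood test), and JV602 went against the other 3 mice. Oas1a had 35, 76, 48 and 101 counts in LLRC and 30, 121, 58 and 120 counts in non-LRC. In each mouse Oas1a was lower in LLRC, but the mice differed more than the populations did, and the log2 fold change was -1.01 with an interval from -2.49 to 0.47. It was -0.65 without the non-LRC library of JV621, and -0.07 with limma. Of the 50-base stretches of Oas1a, 57.6% also occur in Oas1g, so its level is uncertain.

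Eif2ak2 had 183, 227, 267 and 158 counts in LLRC and 163, 455, 117 and 44 counts in non-LRC, and its non-LRC spread was 10.9-fold in CPM. The estimate for Eif2ak2 was -0.49 (SE 0.70) and turned to 0.68 without the non-LRC library of JV621. Oasl1 was low (3.43 ± 2.58 and 3.33 ± 2.55 CPM), with a log2 fold change of 0.05 that was -0.36 without the non-LRC library of JV6314, where it was at 0. Oas3 had 0 counts in all 8 libraries, and Oas2 had 5 counts in the LLRC library of JV624 and 0 in the other 7. Since 3 counts correspond to between 0.291 and 0.626 CPM, levels of Oas2 and Oas3 under this bound were not detectable. The 4 tested genes of the group had a median log2 fold change of -0.69, with 3 below 0 and 0 past the test.

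Isg15 encodes a ubiquitin-like protein that is attached to other proteins, and Usp18 removes it and damps the interferon receptor. Isg15 (chr4:156199424-156200818) was low in every library, with 29, 11, 12 and 16 counts in LLRC and 21, 0, 16 and 0 counts in non-LRC, or 1.91 ± 0.638 and 1.29 ± 1.49 CPM. Its log2 fold change of 0.53 had an interval from -2.03 to 3.09, and the estimate for Isg15 was 0.15 without the non-LRC library of JV621 and 0.14 without that of JV6314. The estimate was 1.11 without the non-LRC library of JV602, 1.04 without that of JV624, and 1.61 with the mouse as a replicate block. The 2 non-LRC libraries without an Isg15 count were those of JV621 and JV6314, in which 176 and 21 otherwise well read genes were also at 0. Usp18 was read at 23.7 ± 4.64 and 21.6 ± 14.9 CPM, and Trim25, a ubiquitin ligase that acts on RIG-I, at 21.3 ± 3.31 and 20 ± 11.9 CPM. Usp18 and Trim25 had log2 fold changes of 0.13 and 0.09, and the estimate of Usp18 was -0.03 with library size in place of TMM.

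Dtx3l, a ubiquitin ligase, and Parp9, its ADP-ribosylating partner, overlap on opposite strands of chromosome 16, and since strand was not counted, reads in the shared 458 bases cannot be assigned to either. Dtx3l was read at 38.9 ± 8.98 and 40.0 ± 14.8 CPM and Parp9 at 21.0 ± 5.19 and 20.1 ± 11.3 CPM, with log2 fold changes of -0.04 and 0.06. Parp14 had 88, 125, 174 and 127 counts in LLRC and 65, 251, 120 and 97 counts in non-LRC. The log2 fold change of Parp14 was -0.65 (SE 0.59), and without the non-LRC library of JV621, which had the highest level, it was 0.04. The 6 genes of the ISG15, ubiquitin and ADP-ribose group had a median log2 fold change of 0.08 and 0 past the test.

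**Figure D3:**
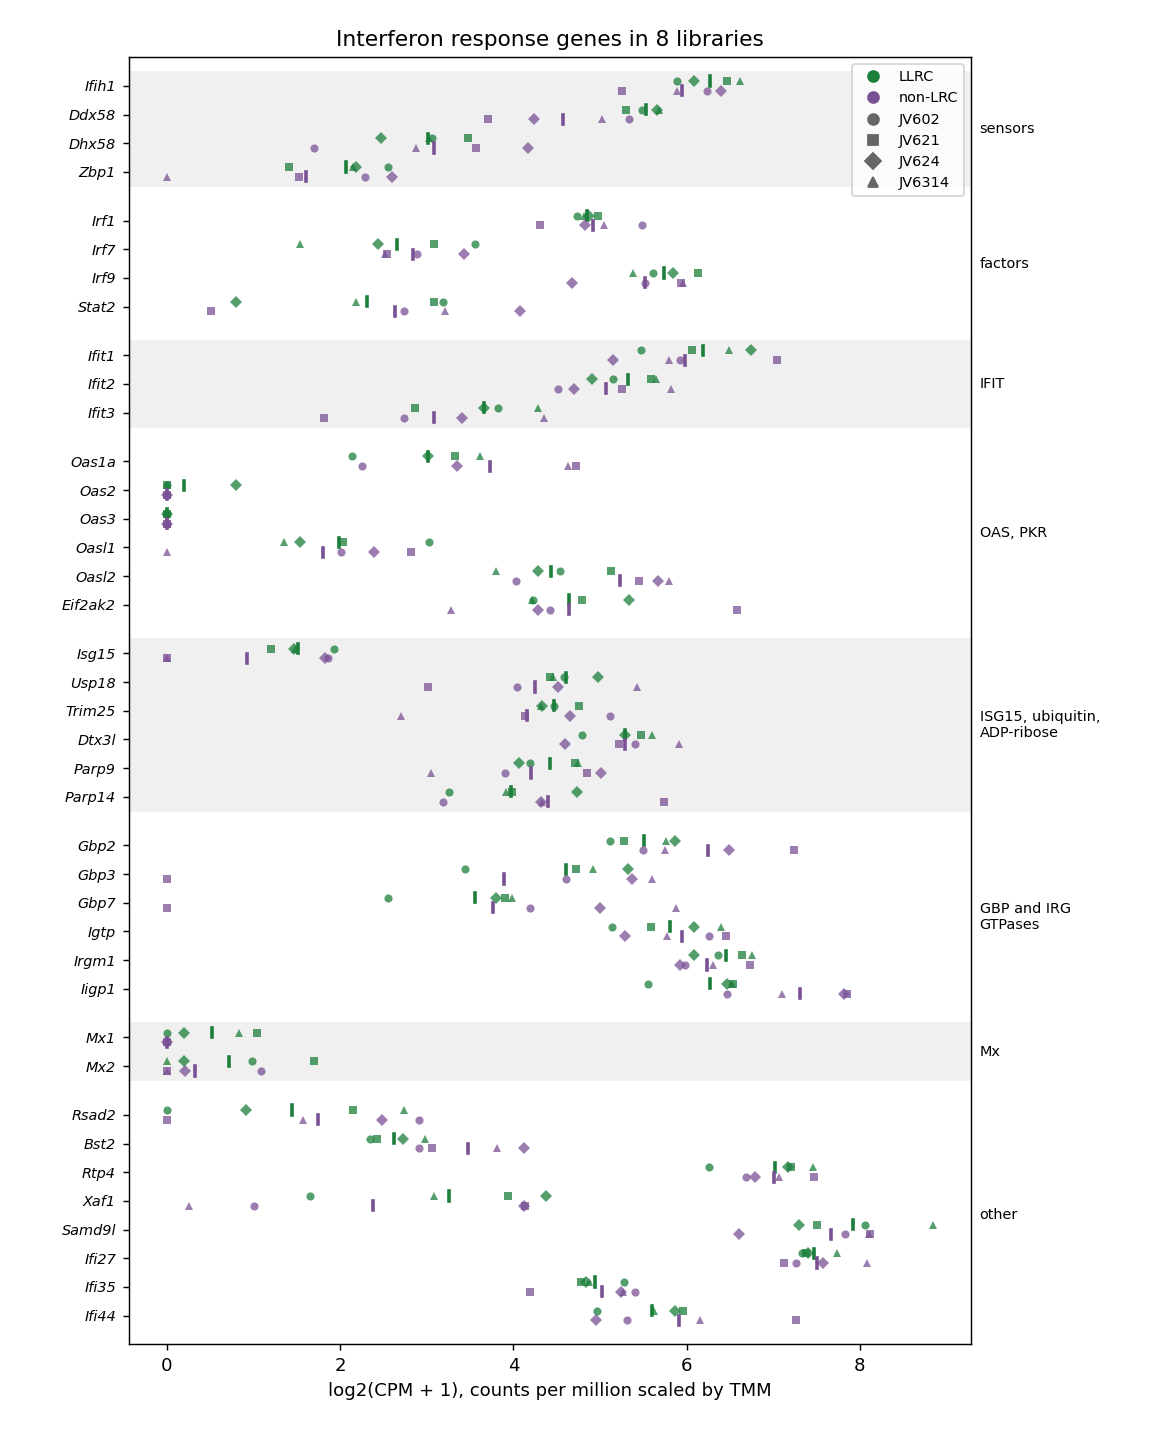
Level of each of the 39 genes in each library, as log2(CPM + 1), grouped by role; green symbols are LLRC and purple symbols non-LRC, the shape gives the mouse and the short vertical bars the mean of 4 libraries. LLRC and non-LRC symbols overlap for every gene, and the non-LRC library of JV621 is at 0 for Gbp3 and Gbp7.

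Guanylate-binding proteins and immunity-related GTPases assemble on the membranes around intracellular bacteria and parasites, and most respond strongly to type II interferon. Iigp1 (Irga6), a GTPase of this kind, had 476, 778, 595 and 822 counts in LLRC and 699, 1103, 1416 and 691 counts in non-LRC. The levels were 79.2 ± 22.1 and 169 ± 69.4 CPM, lower in LLRC in 4 of 4 mice. The groups overlapped, since the non-LRC library of JV602 (87.5 CPM) stood within the range of the LLRC libraries. The log2 fold change of Iigp1 was -1.10 (SE 0.38, 95% interval -1.96 to -0.23), and edgeR's quasi-likelihood test gave an unadjusted p of 0.0183 and an adjusted p of 0.764, beside an exact two-sided permutation p of 0.086. Across the other settings the adjusted p of Iigp1 lay between 0.245 and 1.0000. Iigp1, Oas1a and Bst2 were the 3 genes lower in LLRC in all 4 mice (8.57% of 35), where 5.53% of all tested genes were.

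Gbp2, Gbp3 and Gbp7 are neighbours on chromosome 3 (Gbp7 at 142530342 to 142550149, Gbp3 at 142560026 to 142573209 and Gbp2 at 142620602 to 142638008). Gbp2 had 348, 320, 391 and 479 counts in LLRC and 351, 718, 561 and 268 counts in non-LRC, with means of 45.6 ± 11.5 and 83.8 ± 48.1 CPM. In JV621 the non-LRC level of Gbp2 was the highest of all libraries (149.9 CPM), and in JV6314 the levels of the 2 populations were about equal (53.2 and 52.9 CPM). The log2 fold change was -0.88 (SE 0.43, unadjusted p = 0.0688 in edgeR's quasi-likelihood test) and -0.43 without the non-LRC library of JV621. Gbp7 had 50, 118, 88 and 133 counts in LLRC and 138, 0, 197 and 292 counts in non-LRC, and Gbp3 had 102, 216, 266 and 263 counts in LLRC and 187, 0, 256 and 240 in non-LRC. Both genes thus had 0 counts in the non-LRC library of JV621, where the neighbouring Gbp2 had 718.

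With that library the log2 fold change of Gbp7 was -1.19 (SE 1.11), and without it -1.59, for which edgeR's quasi-likelihood test gave an unadjusted p of 0.0137 and an adjusted p of 0.409. Without the non-LRC library of JV6314 the estimate for Gbp7 was -0.47. In the 3 mice other than JV621 the LLRC level of Gbp7 was lower than the non-LRC level. Gbp3 had a log2 fold change of -0.10 (SE 1.07), which was -0.50 without the non-LRC library of JV621. Of the 50-base stretches of Gbp7, 10.5% also occur in the pseudogene Gm43802, which overlaps its exons.

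Irgm1 (chr11:48861968-48871683), which regulates the other GTPases of its family, had 838, 833, 454 and 966 counts in LLRC and 496, 502, 377 and 395 counts in non-LRC. It was read at 88.4 ± 18.0 and 76.1 ± 20.8 CPM, with a log2 fold change of 0.22 and an interval from -0.44 to 0.88, so a doubling lay outside the interval. Igtp (Irgm3), of the same regulatory kind, was read at 57.9 ± 21.7 and 63.6 ± 21.9 CPM, with a log2 fold change of -0.14 (SE 0.38). The 6 genes of the GTPase group had a median log2 fold change of -0.51, with 5 below 0, 1 of them at an unadjusted p under 0.05, and 0 past the adjusted test. The 2 Mx genes, of a family of dynamin-like GTPases that trap viral particles, were near the detection limit. Mx2 is annotated as a polymorphic pseudogene. Mx1 had 0, 9, 1 and 7 counts in LLRC and 0 in every non-LRC library, and Mx2 had 10, 19, 1 and 0 counts in LLRC and 9, 0, 1 and 0 in non-LRC. Mx1 was in the groups' overlap through its 0 in the LLRC of JV602, and neither Mx gene was tested.

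Of the 8 other effectors, Samd9l, Ifi27 and Rtp4 had the highest mean levels of the tested genes over all 8 libraries. In non-LRC, Iigp1 (169 CPM) stood above Rtp4 (130.4 CPM). Per kilobase of exon, Ifi27, a small membrane protein, led with 120.5 CPM per kb in LLRC and 128 in non-LRC, followed by Rtp4 with 63.3 and 61.2 and by Samd9l with 48.9 and 40.3. In LLRC, Igtp and Ifit1 came next (28.6 CPM per kb each), whereas in non-LRC Gbp2 (33.3), Igtp (31.4) and Iigp1 (29.1 CPM per kb) did. The order of the first 3 was the same in both populations, and 9 of the 35 genes lay among the top 25% of all tested genes on this scale.

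Samd9l, a growth-restraining antiviral factor, had 2749, 1523, 1063 and 4124 counts in LLRC and 1813, 1326, 611 and 1390 counts in non-LRC. Its level in the LLRC library of JV6314 (458 CPM) was above the others, and the log2 fold change was 0.28 (SE 0.44). Ifi27 had 1654, 1400, 1145 and 1916 counts in LLRC and 1219, 660, 1205 and 1363 counts in non-LRC, with a log2 fold change of -0.08 and an interval from -0.71 to 0.54. Rtp4, a chaperone of receptors that also binds viral RNA, had 777, 1237, 971 and 1579 counts in LLRC and 815, 849, 694 and 673 in non-LRC, with a log2 fold change of 0.05 and an interval from -0.68 to 0.78. For these 3 abundant genes LLRC and non-LRC libraries were interleaved.

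Bst2 (tetherin, chr8:71534255-71537456), which holds budding virus at the membrane, had 42, 37, 38 and 62 counts in LLRC and 52, 35, 104 and 66 counts in non-LRC. The levels were 5.23 ± 1.28 and 10.8 ± 4.73 CPM, lower in LLRC in 4 of 4 mice. The groups overlapped in 1 place, since the non-LRC library of JV602 (6.51 CPM) stood below the LLRC library of JV6314 (6.88 CPM). The log2 fold change of Bst2 was -1.05 (SE 0.48, 95% interval -2.13 to 0.04), and edgeR's quasi-likelihood test gave an unadjusted p of 0.0568 and an adjusted p of 0.977, beside an exact two-sided permutation p of 0.057. Ifi44, a cytoplasmic antiviral protein, had 312, 519, 389 and 434 counts in LLRC and 308, 729, 190 and 355 counts in non-LRC, and its log2 fold change of -0.56 (SE 0.52) became 0.10 without the non-LRC library of JV621.

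The 3 remaining effectors did not pass the test either. Ifi35 was read at 30.0 ± 5.23 and 33.2 ± 10.8 CPM, with a log2 fold change of -0.15 (SE 0.35). The antisense gene Gm11626 overlaps 16.8% of the exon bases of Ifi35, and reads in the shared bases cannot be assigned without strand. Xaf1, a pro-apoptotic factor, ran from 2.13 to 19.7 CPM in LLRC and from 0.197 to 16.5 CPM in non-LRC, and Rsad2 (viperin) from 0 to 5.66 and from 0 to 6.51 CPM. Their log2 fold changes, 0.35 and -0.40, had standard errors of 1.14 and 1.36, and the estimate for Rsad2 was -0.80 without the non-LRC library of JV621, where it was at 0. Over the 21 alternative settings the estimates ran from -0.09 to 1.91 for Xaf1 and from -1.70 to 0.58 for Rsad2, with limma giving 1.91 and -1.70. The 8 other effectors had a median log2 fold change of -0.12.

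The ratio of LLRC to non-LRC within each mouse showed no shared direction. On log2(CPM + 1), the median ratio over the 35 genes was 0.06 in JV602, -0.09 in JV621, -0.17 in JV624 and -0.07 in JV6314, beside 0.01, 0.29, -0.03 and 0.09 over all tested genes. Of the 35 genes, 18, 17, 16 and 17 were above 0 in JV602, JV621, JV624 and JV6314, where 50.9%, 59.4%, 48.7% and 53.4% of all tested genes were. By gene, 1 was higher in LLRC in all 4 mice, 8 in 3, 17 in 2, 6 in 1 and 3 in 0. For 31 of the 35 genes the SD of the ratio between mice was larger than its mean.

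**Figure D4:**
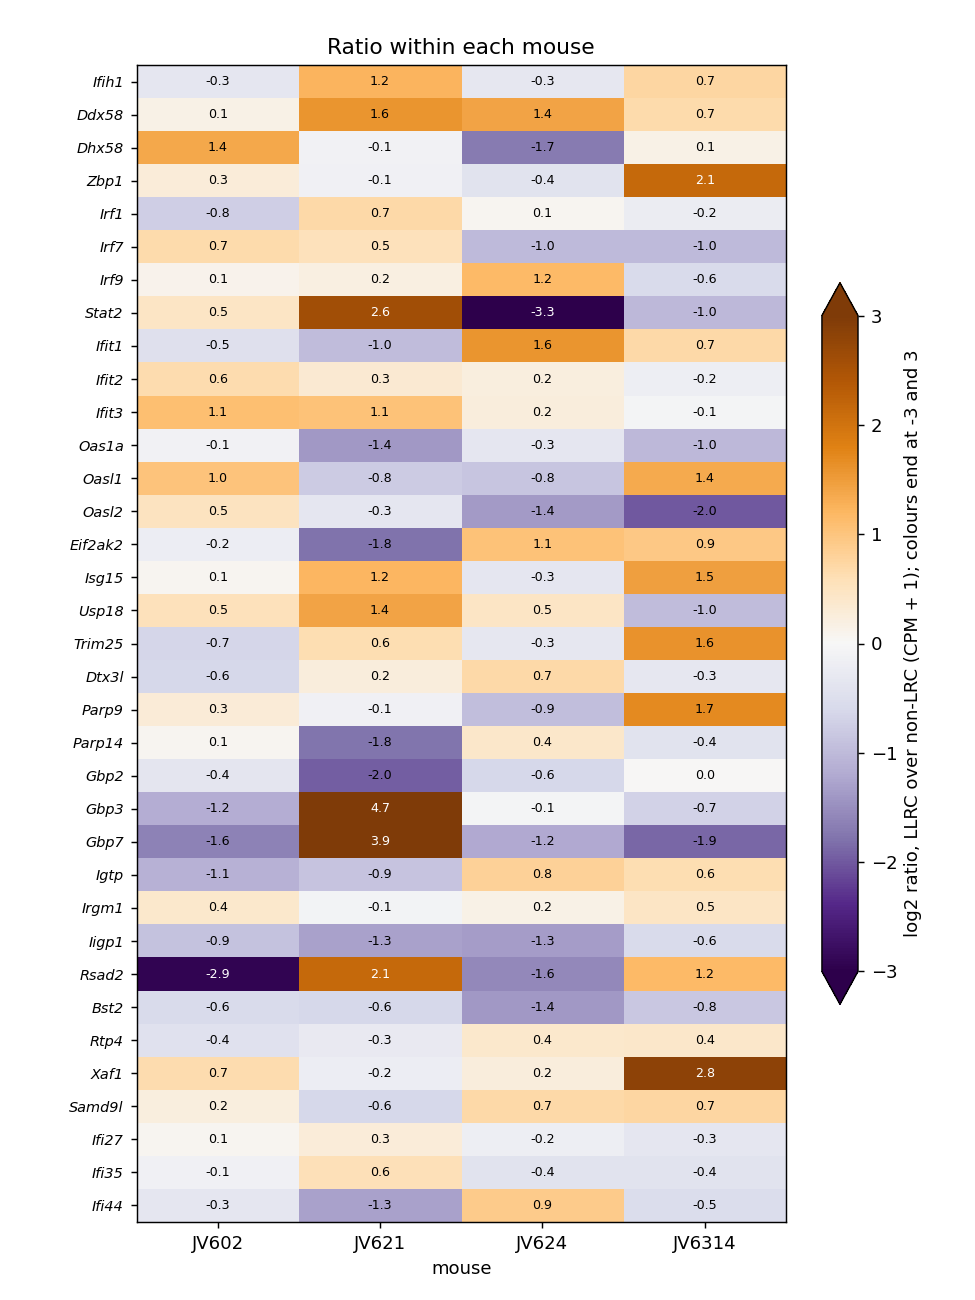
Log2 ratio of LLRC over non-LRC within each mouse (columns) for the 35 tested genes (rows), from CPM + 1; orange is higher in LLRC, purple lower, and each cell prints its value. Iigp1, Bst2 and Oas1a are below 0 in all 4 columns and Ddx58 is above 0 in all 4, whereas 17 genes are above 0 in 2 columns and below in the other 2.

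The spread between libraries differed more than the level. The median SD of log2(CPM + 1) over the 35 genes was 0.48 in LLRC and 0.82 in non-LRC, and 32 of the 35 genes varied more in non-LRC. The same held for all tested genes, with median SDs of 0.41 and 0.83 and 83.5% of genes more variable in non-LRC. The highest library of a gene was most often the non-LRC library of JV621 (9 of 35 genes) and so was the lowest (11 of 35), as for all tested genes (22.6% and 37.3%). Without the non-LRC library of JV621 the median log2 fold change of the 35 genes was 0.04.

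The genes above the response were then looked at. Of 11 interferon genes, 8 (Ifna1, Ifna2, Ifna4, Ifna5, Ifnb1, Ifne, Ifng and Ifnl3) had 0 counts in all 8 libraries. Ifnk had 14 and 8 counts in the LLRC of JV624 and JV6314 and 1 in the non-LRC of JV6314, Ifnl2 had 2 counts in the LLRC and 1 in the non-LRC of JV621, and Ifnz had 1 count in the LLRC of JV602. Transcripts of the other 8 of these 11 genes were not detectable at this depth.

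The receptors were read in both populations. Ifngr1, the ligand-binding chain for type II interferon, stood at 241 ± 50.2 CPM in LLRC and 204 ± 46.8 CPM in non-LRC, and its partner Ifngr2 at 10.3 ± 4.39 and 5.24 ± 5.61 CPM. Of the type I chains, Ifnar1 (26.3 ± 13.6 and 23.7 ± 11.6 CPM) was higher in LLRC in 2 of 4 mice. Ifnar2 (16.7 ± 4.31 and 21.7 ± 4.69 CPM) was lower in LLRC in all 4 mice, as were 5.53% of all tested genes. Of the type III receptor, Il10rb stood at 58.2 ± 5.42 and 58.3 ± 15.4 CPM and Ifnlr1 at 2.40 ± 1.53 and 3.97 ± 5.78 CPM. The log2 fold changes of the 6 receptor genes lay between -0.72 and 0.96, and 0 of 6 passed the test even at an unadjusted p under 0.05. Ifngr2 (0.96) and Ifnlr1 (-0.72) were at 0 in the non-LRC library of JV6314, and their log2 fold changes without it were 0.55 and -1.12.

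Of the kinases, Jak1 was read at 188 ± 38.5 and 307 ± 174 CPM, Jak2 at 23.3 ± 6.50 and 13.4 ± 11.9 CPM and Tyk2 at 3.34 ± 2.10 and 4.73 ± 4.46 CPM. Jak1 was lower in LLRC in all 4 mice, as were 5.53% of all tested genes, while Jak2 was higher in LLRC in 3 mice and Tyk2 in 1. Stat3, a transcription factor downstream of these kinases, stood at 36.2 ± 9.89 and 41.0 ± 16.3 CPM. The feedback inhibitors Socs1 and Socs3 were at 0.283 to 2.44 CPM, and Socs1 was not tested. The phosphatases Ptpn2 (84.9 ± 17.8 and 56.3 ± 32.1 CPM) and Ptpn6 (10.6 ± 3.16 and 9.66 ± 6.25 CPM) and the STAT inhibitor Pias1 (84.1 ± 11.1 and 76.6 ± 14.6 CPM) were also read. Tyk2 and Socs3 were at 0 in the non-LRC library of JV621, and their log2 fold changes were -0.50 and -0.80 with it and -0.90 and -1.20 without it. The 9 tested genes of the kinase, STAT and feedback list had log2 fold changes between -0.80 and 0.79, and 0 passed the test at an unadjusted p under 0.05. Among 14 genes that lead to interferon production, 10 were tested, with log2 fold changes between -1.39 and 1.33 and 0 at an unadjusted p under 0.05, and Tlr7 and Tlr9 had 0 counts in all libraries.

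A further list of 59 interferon-stimulated genes held larger differences. Of 48 tested, 0 passed at the adjusted threshold, 1 was higher in LLRC at an unadjusted p under 0.05 (Cxcl10) and 5 were lower (Sp100, Mndal, Ifitm1, Ifi203 and Gvin1). These are 2.08% and 10.4% of the list, beside 1.60% and 3.56% of all tested genes. The list was chosen with earlier results of these data known, so its shares are not a test. The median log2 fold change was -0.24, beside -0.01 for all tested genes, with 14 genes above 0 (29.2%, against 48.9% of all tested genes) and 34 below. Sp100, a nuclear body protein, had 41, 38, 17 and 51 counts in LLRC and 143, 119, 155 and 130 counts in non-LRC, or 4.16 ± 1.31 and 23.2 ± 3.57 CPM. Every LLRC library of Sp100 stood below every non-LRC library, and the log2 fold change was -2.47 (SE 0.41), and edgeR's quasi-likelihood test gave it an adjusted p of 0.101, beside an exact two-sided permutation p of 0.029, the smallest that 4 against 4 libraries allow.

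Mndal, a nuclear DNA-binding protein of the interferon-inducible p200 family, had 25, 35, 3 and 10 counts in LLRC and 98, 168, 142 and 154 counts in non-LRC (log2 fold change -3.61, adjusted p = 0.144 in edgeR's quasi-likelihood test). Ifitm1, Ifi203 and Gvin1 had log2 fold changes of -2.95, -3.62 and -3.83. In 6 of the 48 genes (12.5%, against 1.91% of all tested genes) every LLRC library was below every non-LRC library, namely these 5 and Oas1b (log2 fold change -1.67). In 2 of the 48 (4.17%, against 2.15%) it was above, namely Cxcl10 and Herc6. The spans of Ifi203 (chr1:173920407-173942672) and Mndal (chr1:173849126-173942491) overlap on the minus strand, so they may not count as separate genes. Oas1b is annotated as a polymorphic pseudogene. Herc6, an ISG15 ligase, had 204, 196, 173 and 219 counts in LLRC and 66, 0, 74 and 3 in non-LRC, and its log2 fold change was 2.16 (SE 1.08, adjusted p = 0.9999 in edgeR's quasi-likelihood test). The log2 ratio of LLRC to non-LRC was 1.16 in JV602 and 1.06 in JV624, against 4.60 in JV621 and 3.99 in JV6314, whose non-LRC libraries had 0 and 3 counts. The estimate was 1.76 without the non-LRC library of JV621 and 1.79 without that of JV6314. Oas1b and Herc6 were named after their values were seen. Cxcl10, a chemokine for activated T cells, had 12, 24, 14 and 27 counts in LLRC and 0 in all 4 non-LRC libraries. Its mean LLRC level was 4.37-fold that of non-LRC libraries set at 3 counts each, a floor that does not cover lost transcripts. The log2 fold change was 7.07 (adjusted p = 0.124 in edgeR's quasi-likelihood test). In the same test it was 7.14 (adjusted p = 0.151) without the non-LRC library of JV621 and 7.13 (adjusted p = 0.245) without that of JV6314.

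The summed endothelial and stellate cell markers were lower in LLRC in each mouse, while the summed hepatocyte markers were higher in LLRC in JV602 and JV621 and lower in JV624 and JV6314. Of 9 tested endothelial markers, 9 were lower in LLRC at an unadjusted p under 0.05, where 3.56% of all tested genes were. With Lyve1, which was not tested, the summed level of the 10 was 29.4 to 55.6 CPM in LLRC and 182 to 622 CPM in non-LRC, and Lyve1 was at 0 in the LLRC of JV602 and the non-LRC of JV621. The summed level of 6 stellate cell markers was 260.2 to 855 CPM in LLRC and 668 to 2546 CPM in non-LRC, with 2 of 3 tested lower at an unadjusted p under 0.05. Of 7 hepatocyte markers, 2 were lower in LLRC at an unadjusted p under 0.05 (median log2 fold change -1.11), with summed levels of 2663 to 3223 CPM in LLRC and 2041 to 5581 CPM in non-LRC. Of 7 pancreatic acinar markers 1 was tested (Cela1, log2 fold change -1.96, unadjusted p = 0.0493 in edgeR's quasi-likelihood test), and in JV602 it was higher in LLRC, at 7.08 against 3.01 CPM. The part of these cells in the lower values of Iigp1, Gbp2, Oasl2, Bst2, Sp100, Mndal, Ifitm1, Ifi203 and Gvin1 was not tested.

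Leukocyte transcripts were few, and the 6 markers did not share a direction. Cd53 was read in LLRC alone, with 11 counts in 1 library, and Laptm5, Coro1a, Cd52 and Cd48 were read in non-LRC alone, with at most 10 counts in a library. Ptprc (CD45) was read mainly in LLRC. It had 5, 34, 14 and 59 counts in LLRC and 0, 0, 0 and 7 in non-LRC, or 3.28 ± 2.62 and 0.345 ± 0.691 CPM. Ptprc was higher in LLRC in 4 of 4 mice, with a log2 fold change of 3.27 (SE 1.42), and edgeR's quasi-likelihood test gave an unadjusted p of 0.0468 and an adjusted p of 0.957. Its part in the levels of the response genes was not tested. The 6 leukocyte markers together stood at 0.485 to 6.55 CPM in LLRC and 0.125 to 2.30 CPM in non-LRC. T and NK cell markers were at 0 in all LLRC libraries, with 1 count in all of non-LRC, and B cell markers reached 0.0969 and 1.42 CPM. Of the macrophage markers, Csf1r stood at 10 to 29.4 CPM in LLRC and 13.2 to 26.9 CPM in non-LRC (log2 fold change -0.16). The other 9 summed to 0 to 0.485 CPM in LLRC and to 1.13, 5.22, 24.8 and 18.1 CPM in non-LRC, and C1qa, Clec4f and Adgre1 were at 0 in all LLRC libraries. Markers of plasmacytoid dendritic cells, a main source of type I interferon, summed to 0 to 6.88 CPM in LLRC and 0 to 6.51 CPM in non-LRC, of which the defining marker Siglech had 1 count in each population.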

How the data were processed

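RNA was sequenced from 8 libraries of sorted liver cells (4 LLRC, 4 non-LRC), with RNA extracted by a PicoPure kit. The deposited table holds whole-number counts for each gene, which the authors made with HTSeq (0.5.3p9 in the methods, union mode, without strand, exons) on GRCm38.p4 with Ensembl genes. The aligner is not given in the sources used here. The processing notes also name mm10 and edgeR 3.2.4. The authors' table of their edgeR comparison (fold changes, abundances, p-values) was not used.

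Counts were scaled by TMM, filtered with filterByExpr and compared across 13605 genes by the quasi-likelihood test of edgeR 4.0.16 (R 4.3.3), with no term but the group, p-values adjusted over all genes (Benjamini-Hochberg) and a threshold of 0.05. Standard errors of log2 fold changes were taken from the F statistic of that fit, and 95% intervals from them and its degrees of freedom. Per-mouse ratios used a prior of 1 CPM. Alternatives were limma 3.58.1, DESeq2 1.42.0, other filters and scalings, a block for the mouse, and the omission of each library or mouse. With 4 libraries per group the smallest exact two-sided permutation p is 0.029.

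The 39 genes and all lists were chosen with earlier results of these data known. Counts by library are given for the 12 tested genes with the smallest unadjusted p, for untested genes with more than 3 counts in a library, for the 3 tested genes with the highest level, and, chosen after their values were seen, for Stat2, Isg15 and Gbp3. The 2 libraries of a mouse come from 1 animal and are paired by it, and their deviations from the group means correlated at 0.0961, 0.0737, 0.00334 and 0.171 in JV602, JV621, JV624 and JV6314. A floor of 3 counts was 0.291 to 0.626 CPM and covers counting error only. Symbols and coordinates are from GENCODE M21 (GRCm38), and promoters from RefSeq (GRCm38.p6). One gene of the pathway lists is not reported here.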

Additional observations from a re-analysis of the deposited data

Results flagged for a closer look

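In groups of 4 libraries, 74 groups of values were checked for a library far from the other 3, and 6 had one by Dixon's criterion, which chance alone gives in about 1 of 20 groups. Eif2ak2 was at 95 CPM in the non-LRC library of JV621 and at 8.68 to 20.4 CPM in the other non-LRC libraries. Iigp1 was at 46.1 CPM in the LLRC library of JV602 and at 87.5 to 92 CPM in the other LLRC libraries. Ifi27 was at 213 CPM in the LLRC library of JV6314 and at 160.3 to 168 CPM in the others. Ifi35 was at 37.8 CPM in the LLRC library of JV602 and at 26.5 to 28.2 CPM in the others. The remaining pair were genes near the detection limit. Oas2 was at 0.735 CPM (5 counts) in the LLRC library of JV624 and at 0 in the others, and Mx2 was at 1.13 CPM (9 counts) in the non-LRC library of JV602 and at 0 to 0.158 CPM in the others.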

How the results depend on the processing

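None of the interferon response genes was called at an adjusted p under 0.05 in any of the 21 alternatives (9 other settings, 8 libraries and 4 mice left out in turn). Among all genes, edgeR's quasi-likelihood test called 0 of 13605 (217 higher and 485 lower at an unadjusted p under 0.05). The count was 11 without an expression filter, 221 with DESeq2's Wald test (1.65% of 13385), 159 with edgeR's exact test and 73 with a newer quasi-likelihood dispersion, and 0 to 6 with libraries or mice left out. At an unadjusted p under 0.05 the number of response genes was 1 in the reported fit, 2 without a filter (with Mx1), with DESeq2's size factors, with library size alone and with the newer dispersion, and 3 with DESeq2 (Iigp1, Bst2 and Ddx58). It was 1 with limma, which was Bst2 and not Iigp1. With libraries left out it was 0 to 6. It was 6 without the non-LRC library of JV602 (Ddx58, Oas1a, Oasl2, Gbp2, Iigp1 and Bst2), 3 without the non-LRC library of JV621, 2 without that of JV6314, 3 without both libraries of JV602, 0 without both of JV624, and 1 without both of JV621, which was Gbp7 and not Iigp1. The share of all tested genes at this threshold is given for the reported fit only. The counts of the alternatives thus have no background beside them and cannot be read as an excess or a lack. The median log2 fold change of the genes was 0.13 with limma, where the median of all genes was 0.10, and -0.11 to 0.08 with libraries left out. With the mouse as replicate block, which pairs the libraries, 0 genes were called (0%), 1 response gene had an unadjusted p under 0.05 (Iigp1, -1.05), the median was 0.02 beside 0.14 for all genes, and no call changed.

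Of the 35 estimates, 22 changed sign in at least 1 alternative. With limma this held for Dhx58 (0.37), Eif2ak2 (0.41), Dtx3l (0.11), Parp14 (0.10), Gbp3 (0.05) and Ifi44 (0.22). With the replicate block it held for Eif2ak2 (0.05), Dtx3l (0.01) and Gbp3 (0.32). With library size alone it held for Usp18 (-0.03), Parp9 (-0.02) and Rtp4 (-0.03), with DESeq2's size factors for Oasl1 (-0.01) and Rtp4 (-0.0011), with DESeq2 for Oasl1 (-0.01) and Rtp4 (-0.00078), and without a filter for Dtx3l (0.01). With libraries or mice left out, estimates that changed sign ranged from -0.67 to 0.34 for Dhx58, -0.11 to 0.78 for Zbp1, -0.34 to 0.13 for Irf1, -0.51 to 0.34 for Irf7, -0.07 to 0.43 for Irf9, -1.24 to 0.42 for Stat2, -0.31 to 0.68 for Ifit1, -0.67 to 0.55 for Oasl1 and -0.99 to 0.68 for Eif2ak2. They ranged from -0.15 to 0.73 for Usp18, -0.22 to 0.45 for Trim25, -0.23 to 0.21 for Dtx3l, -0.33 to 0.48 for Parp9, -1.09 to 0.07 for Parp14, -0.50 to 0.29 for Gbp3, -0.44 to 0.15 for Igtp, -1.37 to 0.58 for Rsad2, -0.09 to 0.26 for Rtp4, -0.09 to 0.90 for Xaf1, -0.11 to 0.57 for Samd9l, -0.20 to 0.15 for Ifi27 and -0.90 to 0.10 for Ifi44. The signs of Ifih1, Ddx58, Ifit2, Ifit3, Oas1a, Oasl2, Isg15, Gbp2, Gbp7, Irgm1, Iigp1, Bst2 and Ifi35 held in all 21 alternatives, but not their sizes. Over these they ranged from 0.05 to 0.52 for Ifih1, 0.63 to 1.16 for Ddx58, 0.02 to 0.52 for Ifit2, 0.11 to 1.06 for Ifit3, -1.34 to -0.07 for Oas1a, -1.18 to -0.44 for Oasl2 and 0.14 to 1.61 for Isg15. They ranged from -1.13 to -0.35 for Gbp2, -1.69 to -0.47 for Gbp7, 0.11 to 0.42 for Irgm1, -1.32 to -0.80 for Iigp1, -1.23 to -0.78 for Bst2 and -0.35 to -0.03 for Ifi35. The limma fit gave the value nearest to 0 for Oas1a, Oasl2 and Iigp1, and libraries or mice left out gave it for the other 10. The cause of these changes was not tested. The 4 untested genes had too few counts to be compared.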
